A study of Mus musculus with 36 samples.

Results

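The glycolysis and hypoxia response genes followed here were 36 named genes, of 49315 genes in the files: the enzymes, transporters and flux regulators of glycolysis, the oxygen sensors, and other targets of the hypoxia-inducible factor (HIF). The members were picked by name and by function, with earlier results of these data known, and each name matched 1 gene identifier. After a filter on low counts, 34 of the 36 could be tested. The glucose transporter gene Slc2a3 (104 counts over 17 libraries) and the flux regulator gene Pfkfb4 (56 counts) stayed below it.

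Cells sense oxygen through the prolyl hydroxylases, encoded by Egln1 and Egln3, which mark the alpha subunit of HIF for destruction while oxygen is present. When oxygen falls, the subunit, encoded by Hif1a, escapes and switches on glucose uptake, glycolysis, lactate export and factors such as Vegfa, a signal for blood vessel growth. The regulation of HIF lies mainly in the stability of its protein, which RNA counts do not measure. Proliferating muscle precursor cells use glycolysis heavily, and muscle is a tissue in which enzyme isoforms switch with differentiation and oxygen supply.

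Polyadenylated RNA was counted in 18 libraries of proliferating C2C12 cells, an established mouse myoblast line, seeded at 1500 cells per square centimetre in sealed culture units. The 6 groups held 3 libraries each: 3 regimes, which the labels call in space without gravity, in space with gravity and on land, were each run both without and with nanoceria. Nanoceria are cerium oxide nanoparticles with antioxidant activity, here coated with serum and given at 100 µg/ml from the medium reservoir. Cells in the space groups were held on the space station at 37 °C and fixed in RNAlater at day 9 after launch, and the ground groups came from a later repeat in the same type of hardware. Space and land were thus separate runs, and the effects of flight and of run cannot be told apart. How gravity was provided in flight is not given in the sources used here. The labels count 3 culture units per group, so p-values measure the spread between these units. Cells were lysed in bulk, so fewer cells and less RNA per cell cannot be told apart.

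Total counts ran from 2986628 to 11378178 in 17 libraries. The remaining one, nanoceria replicate 3 of space with gravity, totalled only 23858 counts, of which 217 fell on the members, with 9 members at 0. In that library 3 counts corresponded to 35.7 CPM (counts relative to library size, with TMM scaling between libraries, a trimmed mean of log ratios). Its TMM factor of 3.86 lowers its scaled levels. The factor was 0.403 in land nanoceria replicate 1, which raises the scaled levels there, and 0.747 to 1.37 elsewhere. Land nanoceria replicate 1 held the highest values of Hk2, Ndrg1, Vegfa, Pdk1 and P4ha2 given below. The 6 most abundant genes, Lars2 and 5 predicted Gm genes, took 23.8% to 76.3% of a library's counts. Their share was 24.5% to 54.4% in space with gravity outside the smallest library, 40.7% to 70.3% in space without gravity and 49.6% to 76.3% on land. Of the counts outside these genes, members held 1.19% in the smallest library, against 2.44% to 3.47% in the rest of its regime. Of 8 myoblast markers, Myf5, Des, Vim, Cdh2, Musk and Chrna1 had counts in all 17 larger libraries, whereas Myod1 was at 0 in 8 of them and Cdh15 had a median of 0.797 CPM. In these 17 libraries the 8 markers summed to 616 to 770.0 CPM in space without gravity. They summed to 520 to 617 CPM in space with gravity and 787 to 1642 CPM on land. The 8 myotube markers summed to 105.7 CPM at most. The 5 fibroblast markers summed to 27.9 to 1756 CPM on land, against 5.43 to 39.5 CPM in space with gravity and 19.5 to 126 CPM in space without gravity. Nearly all of that was the collagen gene Col1a1 in replicate 3 of both land groups, with Lum at 0 in all 17 libraries. In the 17 larger libraries the adipocyte markers summed to at most 3.67 CPM and the endothelial to 21.2 CPM. The macrophage markers summed there to at most 41.8 CPM and the neural to 54.4 CPM. In the smallest library the myoblast markers summed to 191 CPM, the endothelial to 35.7 CPM and the neural to 107 CPM.

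HIF binds DNA at the letters ACGTG or GCGTG. Both were searched on both strands, with overlapping matches counted once, in the 250 bases upstream of each start site in RefSeq (GRCm38.p6). Of the members, 33 had an entry, and 31 of them (93.9%) had a match in at least 1 promoter, against 5374 of 8470 tested genes (63.4%) and 11226 of 27025 genes in all (41.5%). Of the members' 49 promoters, 40 (81.6%) had a match, against 6197 of 10847 (57.1%) for tested genes. The members include genes named as HIF targets, so a higher share is no finding of these data. The letters are short and CpG-rich, so a match is a description and not a binding site. No entry was used for Bnip3l, Slc2a3 and Ndrg1. The stretches of 100 bases that follow come from 4 members that moved between space and land and from 2 glycolytic enzymes that passed no test, chosen because both kinds carry these letters. They read 5′ to 3′ on the strand of the gene, and capitals mark the matches.
Hif1a, chr12:73907717-73907816, plus strand: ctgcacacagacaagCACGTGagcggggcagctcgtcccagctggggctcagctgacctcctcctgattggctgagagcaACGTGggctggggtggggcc
Mxi1, chr19:53329299-53329398, plus strand: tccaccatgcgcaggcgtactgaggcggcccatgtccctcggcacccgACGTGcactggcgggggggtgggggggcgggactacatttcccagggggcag
Adm, chr7:110627537-110627636, plus strand: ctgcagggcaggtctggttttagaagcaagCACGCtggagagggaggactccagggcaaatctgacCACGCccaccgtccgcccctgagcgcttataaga
Ddit4, chr10:59951870-59951969, minus strand: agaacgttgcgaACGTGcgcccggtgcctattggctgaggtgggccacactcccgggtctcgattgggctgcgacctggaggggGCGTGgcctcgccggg
Ldha, chr7:46845681-46845780, plus strand: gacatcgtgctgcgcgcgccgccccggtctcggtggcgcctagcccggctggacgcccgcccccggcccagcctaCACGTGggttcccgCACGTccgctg
Pgk1, chrX:106186912-106187011, plus strand: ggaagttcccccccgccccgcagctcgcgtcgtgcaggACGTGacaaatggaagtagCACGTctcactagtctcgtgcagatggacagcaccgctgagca
Those of Hif1a and Mxi1 lie upstream of a start site inside the gene as the files define it, which begins at an upstream exon, and that of Ldha likewise. None of the 6 stretches overlapped an exon of its own gene in the files.

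Per kilobase of exon, which allows levels to be compared between genes, the members spanned a wide range over the 17 larger libraries. The oxygen sensor gene Egln1 was the highest at 635 ± 353 RPKM (RPKM, the CPM divided by exon length in kilobases; SD, n = 17), followed by Ndrg1, a stress-responsive HIF target, at 581 ± 266 RPKM. The core enzymes Aldoa (274 ± 42.1 RPKM), Gapdh (184 ± 73.8 RPKM) and Pkm (153 ± 29.2 RPKM) came next, with the hexokinase gene Hk2 at 172 ± 164 RPKM among them. The SD ranges of Egln1 and Ndrg1 overlapped, as did those of the genes from Gapdh to Bnip3l (113 ± 74.0 RPKM). These SDs pool the 6 groups, and whether genes differed within libraries was not tested. Hif1a itself stood at 13.5 ± 12.7 RPKM and ranked 26. The lowest tested members were Pfkfb3 (2.11 ± 1.27 RPKM), Pfkm (2.11 ± 1.11 RPKM), the muscle isoform of phosphofructokinase, and Aldoc (1.74 ± 3.37 RPKM). The liver isoform gene Pfkl led the phosphofructokinases at 26.1 ± 7.87 RPKM. The 15 glycolytic enzyme members held 1.36% ± 0.71 (SD, n = 3) of the counts outside the 6 most abundant genes in the untreated group of space without gravity and 0.984% ± 0.108 (SD, n = 3) in its nanoceria group. In space with gravity these shares were 0.895% ± 0.088 and 0.920% ± 0.436, and on land 1.29% ± 0.65 and 1.05% ± 0.36 (each SD, n = 3). The SDs were unequal, and the library ranges of all groups overlapped. They ran from 0.838% to 0.996% in untreated space with gravity and from 0.883% to 2.18% in untreated space without gravity. Differences in these shares were not tested. Of all counts, the order was another: these enzymes held 0.398% and 0.352% on land, without and with nanoceria, against 0.616% and 0.542% in space with gravity and 0.532% and 0.506% in space without gravity. By that measure only untreated land replicate 1, at 0.563%, lay within the range of the larger space libraries (0.444% to 0.711%). Counts of Gapdh and Eno1 are uncertain, because 125 annotated genes at least 95% identical to Gapdh over 200 bases or more held 20.4% as many counts, and 3 such genes held 28.4% as many as Eno1. Ankrd37 shares exon bases with Ufsp2 on the opposite strand, which held more counts, and the strand setting is not given in the sources used here.

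The comparison of space with gravity and land over both nanoceria levels sets flight with gravity beside the later ground run. Of 34 members, 6 passed an adjusted p of 0.05 in edgeR's quasi-likelihood test, or 17.6%, against 14% of the 11558 genes tested. The genes Hif1a, Slc16a3, Bnip3l and Mxi1 rose, which is 11.8% of the members against 7.22% of all genes. Aldoc and Ddit4 fell, or 5.88% of the members against 6.74% of all genes. The share among members was thus near the share among all genes. With 1 of the 12 compared libraries left out, the count ran from 2 to 7 members. It was 3 without untreated replicate 2 of space with gravity or land nanoceria replicate 3, 2 without nanoceria replicate 1 of space with gravity, and 0 with the share of the 6 most abundant genes as a covariate. Of the 34, 19 had a positive log2 fold change, with a median of 0.07, against −0.04 over all genes.

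In GRCm38 coordinates these genes lie on chromosome 12 at 73901375 to 73947530 (Hif1a), 11 at 120948480 to 120960868 (Slc16a3), 14 at 66985239 to 67008877 (Bnip3l) and 19 at 53310506 to 53375810 (Mxi1). Those that fell lie on chromosome 11 at 78322968 to 78327781 (Aldoc) and 10 at 59949675 to 59951770 (Ddit4). Counts cover the exons of each.

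In space without gravity against land the members called were 4 of 34, or 11.8%, against 5.25% of all genes. The count ran from 0 to 4 with 1 of the 12 compared libraries left out, and was 0 with the same covariate. It was 0 without untreated replicate 1 or 3 of space without gravity or land untreated replicate 1 or 2, 1 without nanoceria replicate 1 or 3 of space without gravity or land nanoceria replicate 3, and 2 without land nanoceria replicate 1. Hif1a, Bnip3l and Adm rose (8.82% against 2.81%), and Aldoc fell (2.94% against 2.44%). The median over members was 0.21, against −0.02 over all genes. Both comparisons used the same 6 land libraries, so the second is no independent repeat of the first.

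**Figure D1:**
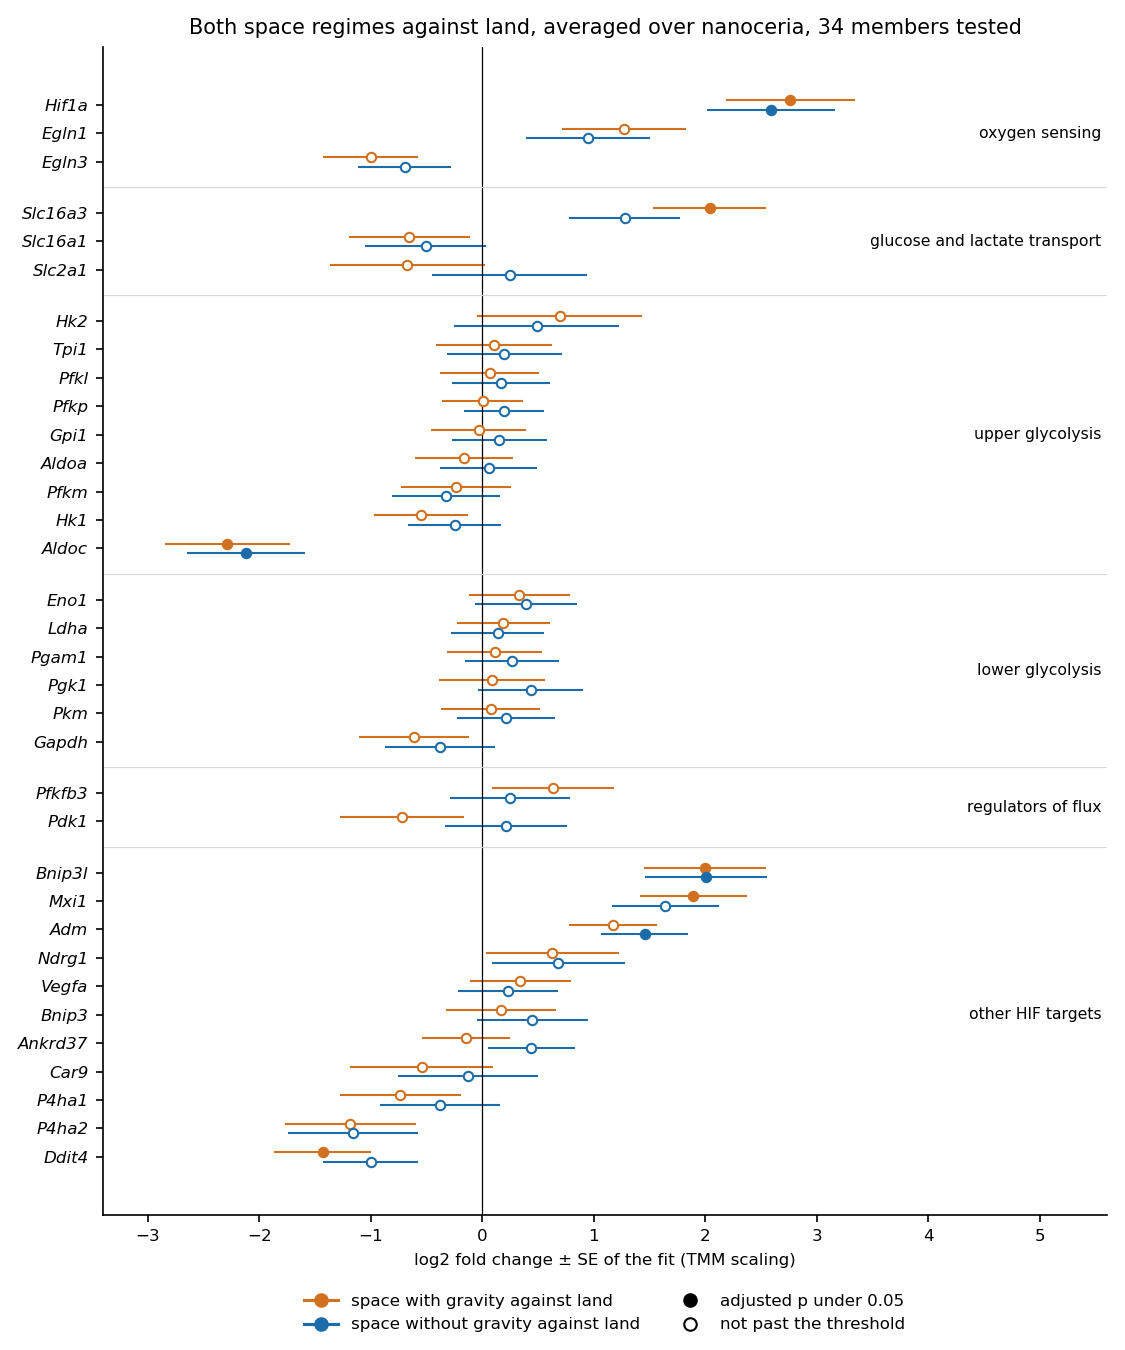
Log2 fold changes against land of the 34 tested members, in orange for space with gravity and in blue for space without gravity, as means over both nanoceria levels, with the standard error of the fit, grouped by role. Filled points had an adjusted p under 0.05. Hif1a lies at 2.76 and 2.58 and Aldoc at −2.28 and −2.12, while the points for the remaining glycolytic enzymes lie between −0.61 and 0.70.

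Among the oxygen sensing genes, Hif1a rose in both comparisons. Hif1a stood at 97.5, 41.8 and 164 CPM without nanoceria and 97.1, 84.3 and 122 CPM with it in space without gravity. Hif1a read 46.0, 177 and 26.8 CPM, and 116, 279 and 59.6 CPM with nanoceria, in space with gravity. On land Hif1a gave 25.1, 19.2 and 16.8 CPM and, with nanoceria, 4.44, 9.42 and 28.0 CPM. All 6 libraries of space without gravity lay above all 6 of land, and in space with gravity the untreated replicate 3 (26.8 CPM) lay below the highest land library (28.0 CPM). The log2 fold change was 2.76 ± 0.58 (SE) for space with gravity (adjusted p = 0.00907) and 2.58 ± 0.57 for space without gravity (adjusted p = 0.0215). The first held in every one of the 12 fits that left out 1 library (2.20 to 3.28, adjusted p at most 0.0295). The second was lost without land untreated replicate 1 (2.70, adjusted p = 0.0589) or 2 (2.61, 0.0591) and without space without gravity untreated replicate 1 (2.63, 0.0528) or 3 (2.35, 0.0655).

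The oxygen sensor Egln1, shown per library because of its high level and chosen after its values were seen, did not pass the test. Egln1 stood at 2107, 374 and 3481 CPM without nanoceria and 2493, 2277 and 3279.8 CPM with it in space without gravity. Egln1 read 3068, 4048 and 2061 CPM, and 2787, 4871 and 524 CPM with nanoceria, in space with gravity. On land Egln1 gave 514, 815 and 936 CPM and, with nanoceria, 2767, 1165 and 1780.1 CPM. Untreated land libraries lay below 1000 CPM, but land with nanoceria and 1 untreated library of space without gravity, replicate 2, overlapped with the rest. On the log2 scale the difference was 1.27 ± 0.56 for space with gravity (adjusted p = 0.127). It was 1.45 without the smallest library (adjusted p = 0.0578). Egln3, the hydroxylase that is itself a HIF target, had a log2 fold change of −0.999 ± 0.43 in the same comparison (adjusted p = 0.116). DESeq2 put Egln3 past the threshold at −1.33 (adjusted p = 0.0131), and the sign turned (0.26) when the share of the 6 most abundant genes was added as a covariate.

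Among the transporters, the lactate exporter gene Slc16a3 rose in space with gravity. Slc16a3 stood at 25.1, 24.5 and 26.4 CPM without nanoceria and 33.9, 23.8 and 32.3 CPM with it in space without gravity. Slc16a3 read 39.5, 29.9 and 7.9 CPM, and 91.5, 130.4 and 11.9 CPM with nanoceria, in space with gravity. On land Slc16a3 gave 9.83, 9.72 and 7.56 CPM and, with nanoceria, 20.0, 19.8 and 2.93 CPM. The highest values were the 2 larger libraries of space with gravity and nanoceria, while untreated replicate 3 of that regime lay within the land range. All 6 libraries of space without gravity lay above the land libraries. The fitted log2 difference was 2.04 ± 0.51 for space with gravity (adjusted p = 0.0172), held in all 12 fits that left out 1 library, and 1.28 ± 0.50 for space without gravity (adjusted p = 0.124). The related lactate transporter Slc16a1 had a log2 fold change of −0.65 ± 0.54 in space with gravity. Per length, Slc16a3 made up a median of 24.5% of the summed level of both genes in space with gravity (6.08% to 42.2%, 5 libraries). It was 15.6% (10.5% to 19.9%) in space without gravity and 5.01% (3.93% to 9.08%) on land (6 libraries each). The shares in space with gravity thus overlapped with those on land.

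Slc2a1 encodes the main glucose transporter of proliferating cells. Slc2a1 stood at 948, 179.7 and 457 CPM without nanoceria and 577, 851 and 699 CPM with it in space without gravity. Slc2a1 read 308, 439 and 573 CPM, and 314, 356 and 23.8 CPM with nanoceria, in space with gravity. On land Slc2a1 gave 159, 364 and 1158 CPM and, with nanoceria, 786, 614 and 28.97 CPM. Among the larger libraries land spanned the whole range, from 28.97 CPM in nanoceria replicate 3 to 1158 CPM in untreated replicate 3. The log2 fold change for space with gravity was −0.67 ± 0.70 (adjusted p = 0.536).

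**Figure D2:**
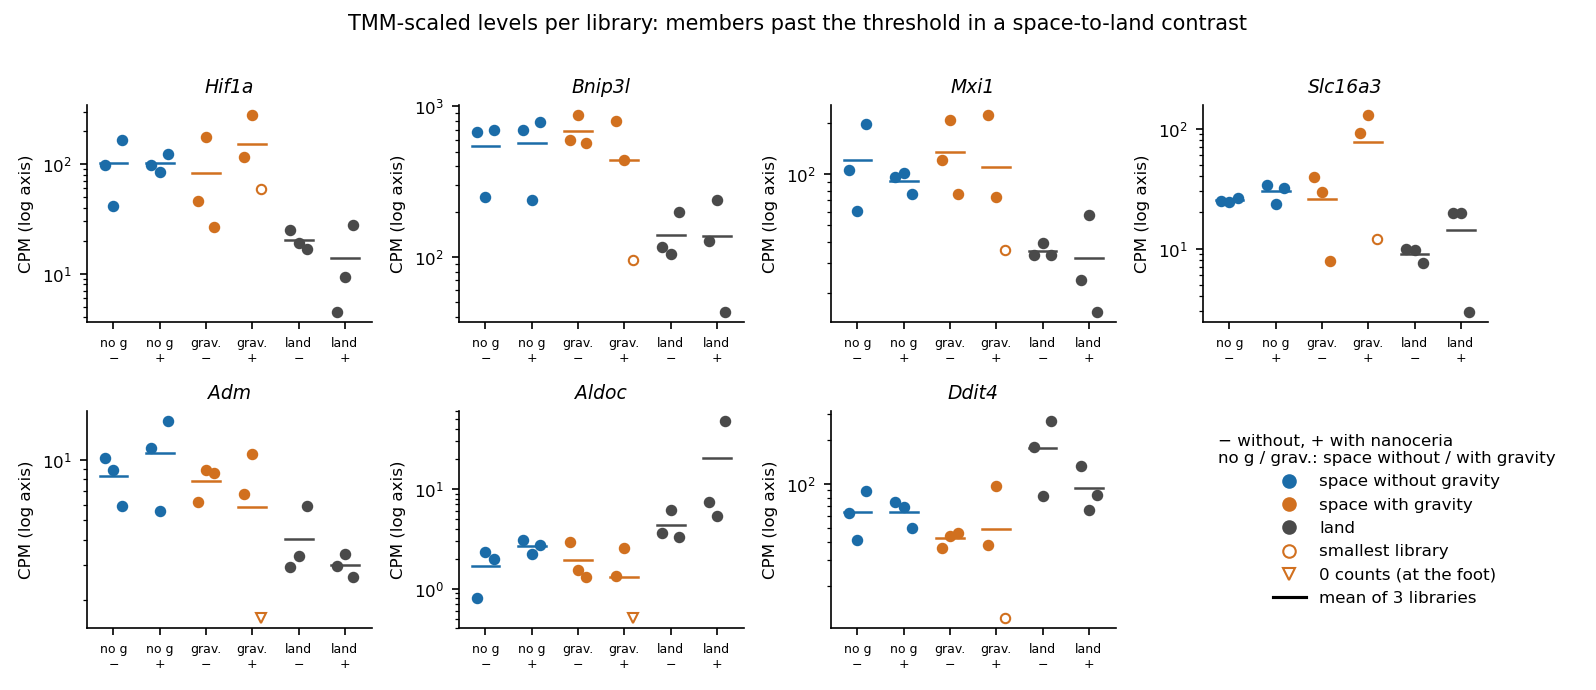
TMM-scaled CPM per library (log axis) of the 7 members past the threshold in at least 1 comparison of space with land, by regime (no g and grav. are space without and with gravity) and nanoceria (− without, + with), with the mean of 3 libraries as a line and the smallest library as an open symbol, at the foot where it had 0 counts. Land libraries of Hif1a lie at 28.0 CPM or less, and Aldoc and Ddit4 are high on land.

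In upper glycolysis the hexokinase Hk2, which traps glucose in the cell, varied widely between libraries and passed no test. Hk2 stood at 1452, 169.6 and 1069.6 CPM without nanoceria and 804, 868 and 1185 CPM with it in space without gravity. Hk2 read 1127, 1237 and 1115 CPM, and 1211, 1385 and 334 CPM with nanoceria, in space with gravity. On land Hk2 gave 191, 251 and 340.4 CPM and, with nanoceria, 4368, 600.2 and 29.9 CPM. The space libraries lay between 804 and 1452 CPM except for the untreated replicate 2 of space without gravity (169.6 CPM) and the smallest library. On land Hk2 ran from 29.9 to 4368 CPM within the nanoceria group alone. The log2 fold change for space with gravity was 0.70 ± 0.74 (adjusted p = 0.547), smaller than its error. Hk2 made up a median of 97.5% of the summed level of Hk2 and Hk1 per length in space with gravity (96.5% to 97.6%, 5 libraries). It was 96.6% (74.6% to 98.0%) in space without gravity and 89.7% (42.2% to 98.3%) on land.

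Aldoc, the minor aldolase isoform in these cells, fell in both comparisons. Aldoc stood at 0.802, 2.35 and 1.96 CPM without nanoceria and 3.06, 2.23 and 2.71 CPM with it in space without gravity. Aldoc read 2.97, 1.55 and 1.32 CPM, and 1.35, 2.55 and 0 CPM with nanoceria, in space with gravity. On land Aldoc gave 3.65, 6.14 and 3.29 CPM and, with nanoceria, 7.4, 5.41 and 47.8 CPM. Every space library lay below every land library, and the 0 in the smallest library allows up to 35.7 CPM. The log2 fold change was −2.28 ± 0.56 for space with gravity (adjusted p = 0.0158) and −2.12 ± 0.53 for space without gravity (adjusted p = 0.0314). The 47.8 CPM of land with nanoceria replicate 3 stood far above the rest, and without that library the values were −1.44 (adjusted p = 0.0527) and −1.29 (adjusted p = 0.106). The first call was also lost without space with gravity and nanoceria replicate 1 (−2.09, adjusted p = 0.0731). The second was lost in 8 of 12 fits, those without each land untreated replicate 1 or 2, land nanoceria replicate 3, untreated replicate 1 or 3 or any nanoceria replicate of space without gravity (adjusted p 0.0587 to 0.106). The major isoform Aldoa, at 771 to 1355 CPM in the larger libraries, had −0.16 ± 0.44 and 0.06 ± 0.44.

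The other 7 upper enzymes, namely Hk1, Gpi1, Pfkl, Pfkm, Pfkp, Tpi1 and Aldoa, passed no test. Their differences between space with gravity and land lay on the log2 scale between −0.55 (Hk1) and 0.11 (Tpi1), each within 1.5 times its standard error.

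The lower enzymes, which yield the ATP of glycolysis, pyruvate and lactate, showed no member past the threshold in any averaged comparison. Gapdh stood at 608, 1093 and 642 CPM without nanoceria and 535, 602 and 678 CPM with it in space without gravity. Gapdh read 474, 582 and 672 CPM, and 631, 1025 and 95.3 CPM with nanoceria, in space with gravity. On land Gapdh gave 1583, 977 and 367 CPM and, with nanoceria, 857, 1078 and 513 CPM. Untreated land replicate 1 was the highest and untreated land replicate 3 the lowest of the larger libraries, so land enclosed both space regimes. The log2 fold change of Gapdh, the enzyme that feeds electrons into NADH, was −0.61 ± 0.50 for space with gravity (adjusted p = 0.415). It was 0.95 with the share of the 6 most abundant genes as a covariate.

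Pgk1 makes the first ATP of the payoff phase. Pgk1 stood at 268, 571 and 336 CPM without nanoceria and 267, 208 and 336 CPM with it in space without gravity. Pgk1 read 250.1, 296 and 306 CPM, and 319.6, 315 and 35.7 CPM with nanoceria, in space with gravity. On land Pgk1 gave 477, 292 and 134 CPM and, with nanoceria, 165, 292 and 121 CPM. The regimes overlapped, with a log2 fold change of Pgk1 of 0.09 ± 0.47 (adjusted p = 0.925). Ldha converts pyruvate to lactate and is a classic HIF target. Ldha stood at 366, 499 and 432 CPM without nanoceria and 374, 336 and 400.4 CPM with it in space without gravity. Ldha read 411, 472 and 328 CPM, and 504, 669.8 and 83.4 CPM with nanoceria, in space with gravity. On land Ldha gave 354, 396 and 333 CPM and, with nanoceria, 274, 405 and 419 CPM. Outside the smallest library all values of Ldha lay between 274 and 669.8 CPM, the smallest ratio of highest to lowest among the members given per library. Ldha had a log2 fold change of 0.19 ± 0.41 (adjusted p = 0.790). The sign of Pgk1 and Ldha depended on the scaling: with DESeq2 size factors they were −0.26 and −0.16. That scaling moved the median of all genes from −0.04 to −0.39, so relative to it both lay slightly above the median gene under either scaling. Eno1 (0.33 ± 0.46), Pgam1 (0.11 ± 0.42) and Pkm (0.07 ± 0.44) were likewise within their errors.

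Of the flux regulators, Pdk1, a kinase that inhibits pyruvate dehydrogenase, was tested with Pfkfb3, an activator of phosphofructokinase. Pdk1 stood at 157, 104 and 241 CPM without nanoceria and 202, 171 and 76.3 CPM with it in space without gravity. Pdk1 read 83.5, 125 and 52.5 CPM, and 93.6, 79.1 and 59.6 CPM with nanoceria, in space with gravity. On land Pdk1 gave 46.1, 28.9 and 233 CPM and, with nanoceria, 390.2, 87.5 and 68.7 CPM. Land ran from 28.9 to 390.2 CPM. Pdk1 had a log2 fold change of −0.72 ± 0.55 for space with gravity (adjusted p = 0.391), and of 0.027 without land untreated replicate 3. That of Pfkfb3 was 0.63 ± 0.54.

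**Figure D3:**
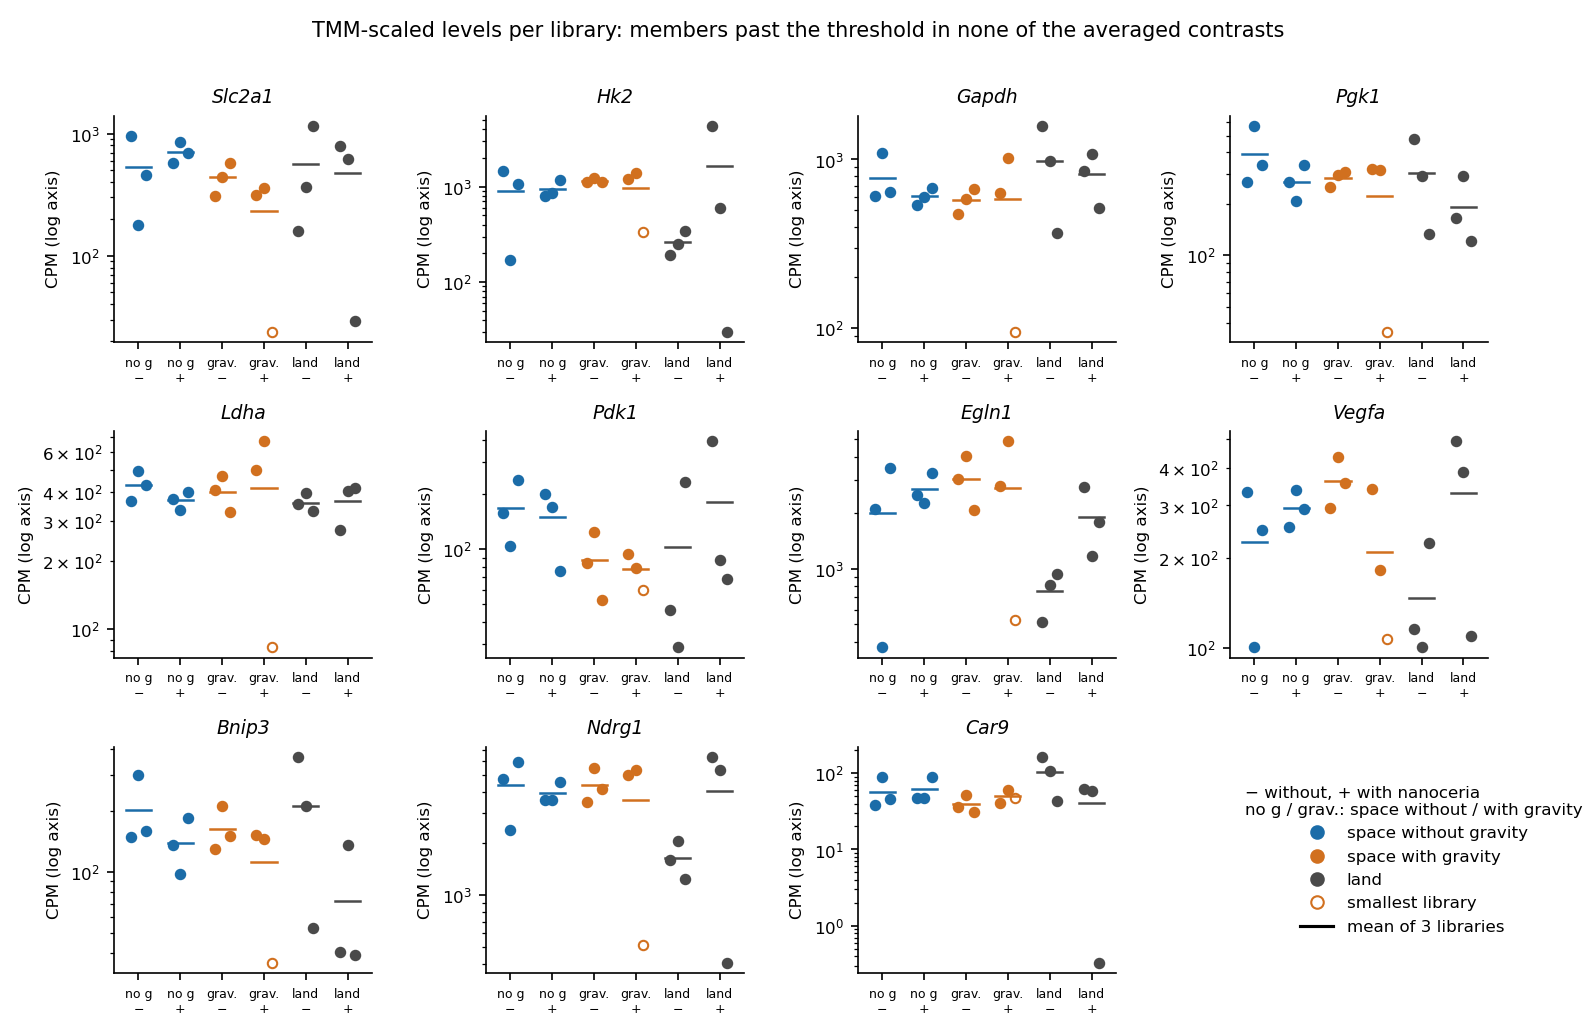
TMM-scaled CPM per library (log axis) of 11 members that passed no averaged comparison, by regime and nanoceria, with the mean of 3 libraries as a line and the smallest library as an open symbol. Outside the smallest library, land encloses the space libraries for Slc2a1, Hk2, Gapdh, Pdk1, Bnip3, Ndrg1 and Car9, for example from 29.9 to 4368 CPM for Hk2 and from 0.325 to 162 CPM for Car9.

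Among the remaining HIF targets, Bnip3l, which encodes a receptor for removal of mitochondria by autophagy, rose in both comparisons. Bnip3l stood at 679, 248 and 695 CPM without nanoceria and 693, 237 and 787 CPM with it in space without gravity. Bnip3l read 593, 873 and 573 CPM, and 793, 440.1 and 95.3 CPM with nanoceria, in space with gravity. On land Bnip3l gave 117, 104 and 200.1 CPM and, with nanoceria, 128, 239.8 and 43.0 CPM. Outside the smallest library, all 5 libraries of space with gravity lay above all 6 of land. Space without gravity overlapped with land through nanoceria replicate 2 at 237 CPM. On the log2 scale the difference was 1.99 ± 0.55 for space with gravity (adjusted p = 0.0247) and 2.00 ± 0.55 for space without gravity (adjusted p = 0.0420). The first was lost without untreated replicate 2 (1.92, adjusted p = 0.0594) or nanoceria replicate 1 of space with gravity (1.65, 0.0901), land untreated replicate 1 (1.96, 0.0634) or 2 (1.94, 0.0659), or land nanoceria replicate 3 (1.81, 0.0528). The second was lost in 8 of 12 fits (1.81 to 2.01, adjusted p 0.0692 to 0.109), those without replicate 1 or 3 of either space group, land untreated replicate 1 or 2, or land nanoceria replicate 1 or 3.

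Its relative Bnip3, with the same role and a strong HIF target, did not pass. Bnip3 stood at 148, 298 and 159 CPM without nanoceria and 136, 97.3 and 184 CPM with it in space without gravity. Bnip3 read 129.9, 209.6 and 149 CPM, and 153, 146 and 35.7 CPM with nanoceria, in space with gravity. On land Bnip3 gave 366, 210.2 and 52.9 CPM and, with nanoceria, 40.4, 136 and 39.1 CPM. Bnip3 had a log2 fold change of 0.17 ± 0.50 for space with gravity (adjusted p = 0.852), and −0.18 with DESeq2 size factors, above the median of all genes under either scaling. Per length, Bnip3l made up a median of 71.0% of the summed level of both genes in space with gravity (63.9% to 75.3%, 5 libraries) and 71.7% in space without gravity (32.8% to 74.9%). On land it was 45.0% (15.8% to 68.9%). The lowest space value, 32.8%, came from untreated replicate 2 of space without gravity.

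**Figure D4:**
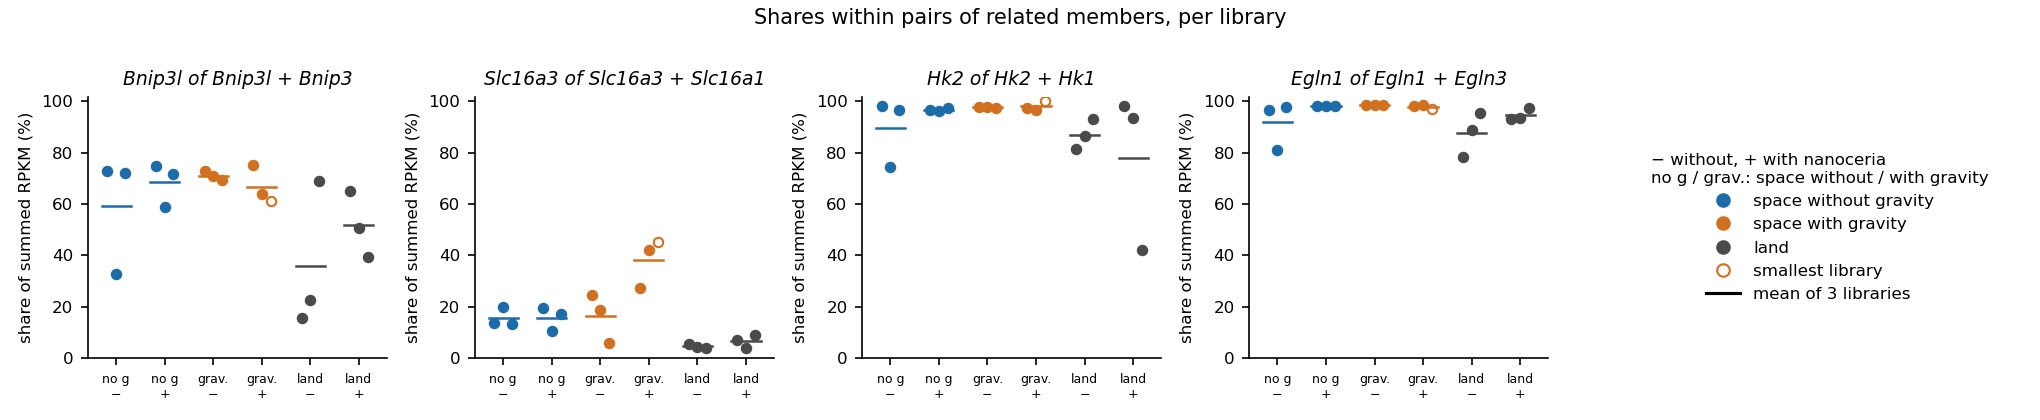
Share of the first gene in the summed RPKM of 4 pairs of related members (percent), per library, by regime and nanoceria, with the mean of 3 libraries as a line and the smallest library as an open symbol. The Slc16a3 share on land, at 3.93% to 9.08%, overlaps with that of space with gravity, which starts at 6.08% outside the smallest library. The Bnip3l share is widest on land, at 15.8% to 68.9%.

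Mxi1, a transcriptional antagonist of MYC, rose in space with gravity. Mxi1 stood at 106, 60.6 and 197 CPM without nanoceria and 96.4, 101.7 and 76.7 CPM with it in space without gravity. Mxi1 read 122, 208 and 76.4 CPM, and 223, 72.8 and 35.7 CPM with nanoceria, in space with gravity. On land Mxi1 gave 33.4, 39.4 and 33.2 CPM and, with nanoceria, 23.7, 57.5 and 15.3 CPM. Space without gravity lay above all land libraries, as did space with gravity outside the smallest library. The fitted log2 difference was 1.89 ± 0.48 (adjusted p = 0.0183) for space with gravity and 1.64 ± 0.48 (adjusted p = 0.0513) for space without gravity. The first was lost without untreated replicate 2 (1.70, adjusted p = 0.0547) or nanoceria replicate 1 of space with gravity (1.40, 0.0855). The second passed without untreated replicate 2 of space without gravity (1.83, 0.0415) or land nanoceria replicate 2 (2.03, 0.0371).

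Adm (chromosome 7, 110627661 to 110629820) encodes adrenomedullin, a vasodilator peptide. Adm stood at 10.2, 8.89 and 5.88 CPM without nanoceria and 11.5, 5.57 and 15.6 CPM with it in space without gravity. Adm read 6.19, 8.94 and 8.56 CPM, and 6.73, 10.7 and 0 CPM with nanoceria, in space with gravity. On land Adm gave 2.95, 3.32 and 5.91 CPM and, with nanoceria, 2.96, 3.41 and 2.6 CPM. These low levels rested on 812 counts over 17 libraries, and the lowest 2 libraries of space without gravity lay within the land range. The log2 fold change was 1.45 ± 0.39 for space without gravity (adjusted p = 0.0390) and 1.17 ± 0.39 for space with gravity (adjusted p = 0.0539). The first was lost in 10 of 12 fits (1.30 to 1.57, adjusted p 0.0510 to 0.102), all but those without nanoceria replicate 2 of space without gravity or land untreated replicate 3. It was also lost under 5 of 9 other settings, namely DESeq2 size factors (1.22, 0.0677), no filter (1.51, 0.0795), the covariate (1.43, 0.163), the library size outside the 6 most abundant genes (1.41, 0.0728) and only the libraries compared (1.46, 0.0511). The second passed without the smallest library (1.19, adjusted p = 0.0449) or land untreated replicate 3 (1.39, 0.0394).

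Ddit4, an inhibitor of the growth kinase mTORC1, fell in space with gravity. Ddit4 stood at 62.8, 40.9 and 89.8 CPM without nanoceria and 74.5, 69.4 and 49.4 CPM with it in space without gravity. Ddit4 read 36.4, 44.0 and 46.3 CPM, and 38.1, 97.2 and 11.9 CPM with nanoceria, in space with gravity. On land Ddit4 gave 178, 82.8 and 268 CPM and, with nanoceria, 133, 65.9 and 83.7 CPM. The 4 lowest of the larger libraries of space with gravity lay under all land libraries, while nanoceria replicate 2 at 97.2 CPM lay within the land range. On the log2 scale the difference was −1.43 ± 0.43 for space with gravity (adjusted p = 0.0365) and −0.998 ± 0.43 for space without gravity (adjusted p = 0.155). The first was lost in 8 of 12 fits (−1.45 to −1.17, adjusted p 0.0561 to 0.114), those without any untreated or the first nanoceria replicate of space with gravity, land untreated replicate 1 or 3, or land nanoceria replicate 1 or 3. That call was also lost with no filter on low counts and with only the libraries compared, and held under 6 of 10 other settings.

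Vegfa, the vessel growth factor, passed no test. Vegfa stood at 332, 100.3 and 248 CPM without nanoceria and 254, 337 and 292 CPM with it in space without gravity. Vegfa read 295, 437 and 357 CPM, and 341, 182 and 107 CPM with nanoceria, in space with gravity. On land Vegfa gave 115, 101 and 225 CPM and, with nanoceria, 492, 388 and 109.7 CPM. Untreated land replicates 1 and 2 were low and land with nanoceria replicate 1 the highest of all. The fitted log2 difference was 0.34 ± 0.45 for space with gravity (adjusted p = 0.638). Ndrg1 was among the most abundant members throughout. Ndrg1 stood at 4735, 2384 and 5915 CPM without nanoceria and 3595, 3571 and 4555 CPM with it in space without gravity. Ndrg1 read 3503, 5467 and 4124 CPM, and 4964, 5322 and 512 CPM with nanoceria, in space with gravity. On land Ndrg1 gave 1607, 2062 and 1239 CPM and, with nanoceria, 6345, 5329 and 404 CPM. Untreated land libraries lay below every larger space library, but land with nanoceria held both the highest and the lowest value. Its log2 fold change was 0.63 ± 0.60 (adjusted p = 0.496).

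Car9 encodes a carbonic anhydrase of the cell surface that is often used as a marker of hypoxia. Car9 stood at 38.1, 88.3 and 45.4 CPM without nanoceria and 47.8, 47.5 and 88.0 CPM with it in space without gravity. Car9 read 35.6, 51.7 and 30.6 CPM, and 41.0, 60.7 and 47.7 CPM with nanoceria, in space with gravity. On land Car9 gave 162, 105 and 43.0 CPM and, with nanoceria, 61.8, 59.1 and 0.325 CPM. The 0.325 CPM in land with nanoceria replicate 3 was a single count, against 30.6 to 162 CPM in the other larger libraries. Car9 had a log2 fold change of −0.54 ± 0.64 (adjusted p = 0.591). The other members of this kind, namely P4ha1 and P4ha2, which build collagen, and Ankrd37, passed no test either, with log2 fold changes of −0.73 ± 0.54, −1.18 ± 0.59 and −0.14 (adjusted p = 0.976) in the same order. P4ha2 stood at 928 CPM in land with nanoceria replicate 1, against at most 107 CPM in each other library.

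Several values moved with these comparisons, and their part in them was not tested beyond what follows. The share of the 6 most abundant genes was higher on land than in space with gravity. With it as a covariate no member passed in either comparison, and 1 and 6 of all genes did. Under that fit the log2 fold changes, none past the threshold, were 3.13 for Hif1a (adjusted p = 0.182), 2.48 for Slc16a3 (0.249), 1.16 for Bnip3l (0.659) and 1.23 for Mxi1 (0.621). Land replicates 3, with the high Col1a1, were left out together in a further fit. There 5 members passed for space with gravity, without Mxi1 (1.73, adjusted p = 0.0522) and Ddit4 (−1.22, 0.0871) and with Egln3 (−1.32, 0.0469). For space without gravity 2 passed, without Bnip3l (1.99, 0.0660) and Aldoc (−1.36, 0.0824). Without the smallest library, 35 members were tested, and 7 passed for space with gravity (20%, against 13% of 12375 genes) and 5 for space without gravity (14.3%, against 5.76%). Among settings that left out no single library, space with gravity kept the call under 9 of 10 for Hif1a and Slc16a3. It kept it under 8 of 10 for Bnip3l and Mxi1 and 8 of 9 for Aldoc. For space without gravity Hif1a passed under 9 of 10, Bnip3l 7 of 10, Aldoc 6 of 9 and Mxi1 5 of 10. Both calls of Bnip3l were lost with only the libraries compared.

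Gravity withdrawn in space, the comparison of space without gravity against space with gravity, asks what weightlessness did within the flight. None of 34 members passed in edgeR's test, against 0% of all genes, and 0 members had an unadjusted p under 0.05, against 5.85% of all genes. DESeq2 called 0 members and 11 genes in all, and limma voom 0 members. The smallest p belonged to Pdk1, at 0.93 ± 0.56 (unadjusted p = 0.110), and to Slc16a3, at −0.76 ± 0.49 (unadjusted p = 0.138). Hif1a (−0.18), Bnip3l (0.01) and Mxi1 (−0.25) had fitted values near 0. Given the spread between libraries, that does not show these genes to be unchanged. Of the 34 members 25 had a positive value (73.5%, against 52.9% of all genes), with a median of 0.15 against 0.04. Without the smallest library, which lies in space with gravity, the median over 35 members was −0.02, against 0.01 over all genes.

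Nanoceria, averaged over the 3 regimes, gave 0 members and 0% of all genes past the threshold, and 2 members (5.88%) with an unadjusted p under 0.05, against 6.54% of all genes. These were Slc16a3, at 0.87 ± 0.40 (unadjusted p = 0.0444, adjusted p = 0.752), and Aldoc, at 0.92 ± 0.43 (unadjusted p = 0.0475, adjusted p = 0.752). Bnip3 followed at −0.85 ± 0.41 (unadjusted p = 0.0502). All 9 upper glycolysis members had positive values (0.03 to 0.92), and 5 of the 6 lower ones negative values (−0.49 to 0.14), none of them past the threshold. Over all genes 47.3% were positive, with a median of −0.03, and a split between upper and lower members was not tested. On land 9 of the 9 upper members were positive, against 5 of 9 in space without gravity and 5 of 9 in space with gravity. Of all 34 members, 61.8%, 50% and 47.1% were positive in that order. The land nanoceria group includes replicate 1, with its TMM factor of 0.403, and whether the regimes differed in these signs was not tested. The lower members were negative in 4 of 6, 6 of 6 and 3 of 6 cases on land, in space without gravity and in space with gravity. DESeq2 also called 0 members, with 1 gene in all, and limma voom called 0 members.

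In edgeR's test the 9 comparisons of 3 libraries against 3 called no member. DESeq2 called 2 members for space with gravity against land without nanoceria, 4 with it and 3 for space without gravity with it, and limma voom called 7 for the first of these. Over all genes edgeR called 0%, except 0.00865% for space with gravity against land and 0.0433% for space without gravity against land, both with nanoceria. Before adjustment, members had a p under 0.05 in 6 and 7 cases (17.6% and 20.6%) for space with gravity against land, without and with nanoceria, against 21.5% and 20.5% of all genes. For space without gravity these were 4 and 6 cases (11.8% and 17.6%), against 13% and 19.2%. Gravity withdrawn gave 0 without nanoceria and 1 with it (2.94%), against 4.05% and 5.78%. The nanoceria effect gave 0 in space without gravity (against 3.97%) and 1 in space with gravity (2.94%, against 4.46%). The single member was Slc16a3 in both cases (unadjusted p = 0.0486 and 0.0265). The nanoceria effect on land gave 4 (11.8%, against 10.2%), with Aldoc at 2.21 ± 0.73 (adjusted p = 0.333) and Hk2 at 2.68 ± 1.11 (adjusted p = 0.424). Whether the nanoceria effect differed between regimes was tested directly, with 0 members and 0% of all genes past the threshold. The smallest p there was 0.117, for Aldoc.

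Of the 105 tested genes of 6 lists around these pathways that are no members, 10 passed in space with gravity (9.52%, against 14% of all genes) and 4 in space without gravity (3.81%, against 5.25%). Of 15 tested HIF pathway components, Cops5, a subunit of the COP9 signalosome, rose in space with gravity (4.16 ± 0.65, adjusted p = 0.00288) and in space without gravity (3.91 ± 0.64, adjusted p = 0.00773). Both calls of Cops5 held in every fit that left out 1 library. Both were lost with the share of the 6 most abundant genes as a covariate (adjusted p = 0.142 and 0.0584). Elob, the elongin B partner of the VHL ubiquitin ligase, fell in space with gravity (−1.62 ± 0.45, adjusted p = 0.0247). The list had a median of −0.25 in the first comparison and 0.04 in the second.

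Of 37 tested other HIF targets, 4 passed in space with gravity (10.8%), and the median of the list was 0.10, against −0.04 over all genes. The nuclear receptor coactivator Pnrc1 (−1.67 ± 0.39, adjusted p = 0.0140) and the lipase inhibitor Angptl4 (−1.37 ± 0.44, 0.0452) fell, and the carbonic anhydrase Car12 (1.95 ± 0.60, 0.0374) and the nuclear receptor Rora (2.21 ± 0.72, 0.0496) rose. In space without gravity Pnrc1 fell (−1.53 ± 0.39, adjusted p = 0.0333) and Rbpj, the Notch transcription factor, rose (1.47 ± 0.39, 0.0390).

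Of 11 other glycolysis and glucose entry genes, Pfkfb2, a relative of Pfkfb3 that controls phosphofructokinase, rose in space with gravity (3.17 ± 0.76, adjusted p = 0.0147) and Slc2a8, an intracellular glucose transporter, fell (−1.64 ± 0.49, 0.0330). Of 17 genes of pyruvate and lactate fates, Pdhb, a subunit of pyruvate dehydrogenase, rose (1.21 ± 0.37, adjusted p = 0.0378). Of 13 genes of the pentose phosphate and hexosamine branches, Pgls fell in space with gravity (−1.57 ± 0.48, adjusted p = 0.0369), and Gfpt1, the entry enzyme of hexosamine synthesis, rose in space without gravity (1.52 ± 0.37, 0.0289). None of 12 glycogen genes passed in any averaged comparison, and the smallest unadjusted p were those of Pgm2 for nanoceria (−1.47 ± 0.44, unadjusted p = 0.00339) and Phka1 for gravity withdrawn (−1.66 ± 0.61, unadjusted p = 0.0136). For nanoceria and for gravity withdrawn, 0 genes of the 6 lists passed. In the fits that left out 1 library, Cops5, Pfkfb2 and, for space with gravity, Pnrc1 kept their calls in all 12. None of the calls in the 6 lists held with the share of the 6 most abundant genes as a covariate. Rbpj and Pnrc1 for space without gravity lost their calls in 9 of 12 fits, and Gfpt1 in 6. The others lost theirs in 5 (Elob), 7 (Car12), 8 (Slc2a8, Pgls), 9 (Pdhb) and 10 (Angptl4, Rora) of 12 fits. Car12 dropped most without nanoceria replicate 2 of space with gravity (0.95, adjusted p = 0.263). In space with gravity the call held under 2 of 10 other settings for Pdhb, 3 of 9 for Car12 and 4 of 10 for Rora. It held under 6 of 10 for Angptl4, 6 of 9 for Slc2a8 and 8 of 10 for Elob and Pgls. It held under 8 of 9 for Pfkfb2 and 9 of 10 for Cops5 and Pnrc1. In space without gravity it held under 6 of 10 for Rbpj and 7 of 10 for Pnrc1. There Gfpt1 kept its call under 8 of 10 and Cops5 under 9 of 10.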

How the data were processed

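The deposited files held whole-number counts per gene for 18 polyadenylated RNA libraries of 6 groups of 3. Per the submitters' processing notes, CASAVA, Trimmomatic 0.36.29, STAR, Subread and featureCounts were used with the genome build GRCm38.p6. Strand and multimapping settings are not given in the sources used here. The 18 small RNA samples were not analysed here.

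No 2 libraries held identical values. Counts were fitted for all 18 libraries together with the quasi-likelihood test of edgeR 4.0.16 (R 4.3.3), with 1 mean per group, TMM scaling and the default filter on low counts, which kept 11558 genes and left 12 residual degrees of freedom. P-values were adjusted by the method of Benjamini and Hochberg over those genes, with a threshold of 0.05. Standard errors are the absolute log2 fold change divided by the square root of the F statistic. The common biological coefficient of variation was 0.659, which with 3 libraries per group limits what could pass. A count of 0 allows up to 3 counts, and such floors cover counting error only. Copies were sought with BLAST 2.17.0.

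The members and lists were chosen with earlier results of these data known. Every member is accounted for. Values per library are given for members past the threshold in an averaged comparison for 12 members fixed by name and for Egln1, chosen after its values were seen, and genes of the other lists are named where they passed, otherwise the 2 with the smallest p. Alternatives were DESeq2 1.42.0 and its size factors, limma 3.58.1 (voom with quality weights), other filters, only the libraries compared, the 6 most abundant genes removed or as a covariate, and each library left out.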

Additional observations from a re-analysis of the deposited data

How the results depend on the processing

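No paired analysis was possible because no label pairs libraries, and their numbers only follow the order of the records. SG and S0 are space with and without gravity against land, over both nanoceria levels unless stated. Of 454 comparisons of 47 log2 fold changes under settings other than leaving out 1 library, 355 kept direction and call, 66 lost the call, 11 gained it and 22 reversed; with 1 of the libraries compared left out, 449 of 588 kept both, 128 lost the call, 4 gained it and 7 reversed. Of the 22, 9 are Pgk1, Ldha and Bnip3 under 3 scalings that moved the median of all genes in SG from −0.04 to between −0.37 and −0.40, and all 3 genes lay above that median under each; for the others the cause was not tested. With DESeq2 size factors, SG was −0.26 for Pgk1, −0.16 for Ldha and −0.18 for Bnip3. With a mean of at least 50 counts these were −0.16, −0.066 and −0.064, and 1 member passed in SG untreated and 1 with nanoceria. Without a filter, 214 genes passed for nanoceria, 229 for gravity withdrawn and 1466 in S0, and 3 members in SG and 2 in S0 with nanoceria. With the share of the 6 most abundant genes as covariate, 0 members passed in SG and 0 in S0, of 1 and 6 genes, and SG was 0.26 for Egln3, 0.95 for Gapdh, −0.19 for Vegfa, 0.57 for Car9 and −0.91 for Rora. DESeq2 called 1 gene for nanoceria, 11 for gravity withdrawn, 2691 in SG and 1524 in S0, with 2 members in SG untreated, 4 in SG and 3 in S0 with nanoceria; SG was −0.25 for Pgk1, −0.15 for Ldha and −0.17 for Bnip3. Voom gave −0.27 for Pgk1, −0.24 for Ldha and −0.22 for Ndrg1 in SG, 989 genes in S0 and 7 members in SG untreated. With only the libraries compared, 1072 genes passed in SG and 387 in S0, with 1 member in S0 and 2 in SG untreated. Of the 2 alternatives chosen after seeing the data, the library size outside the 6 most abundant genes gave −0.31 for Pgk1, −0.16 for Ldha and −0.24 for Bnip3 in SG, with 1 member in SG untreated and 1 with nanoceria, and leaving out both collagen-rich land libraries gave −0.18 for Pgk1 and −0.17 for Bnip3, with 2 members in S0. With 1 of the libraries compared left out, 2 to 7 members passed in SG, 0 to 4 in S0 and 0 to 1 in S0 with nanoceria, of 459 to 1614 and 82 to 703 genes in SG and S0; SG ran from −0.055 to 0.36 for Pgk1, −0.022 to 0.36 for Ldha, −0.93 to 0.027 for Pdk1 and −0.022 to 0.63 for Bnip3. The glycolytic share of all counts, in place of those outside the 6 genes, was 0.398% and 0.352% on land, 0.616% and 0.542% in space with gravity and 0.532% and 0.506% in space without gravity, without and with nanoceria. In the smallest library, of 23858 counts, 3 counts corresponded to 35.7 CPM. A member at 0 there could have stood at up to that level.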
